A study of Mus musculus with 8 samples.

Results

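Chromosome 19 is the shortest mouse autosome, and the regions described here are those of accessible chromatin along its length. They were defined by position: the ATAC-seq peaks of all 8 libraries were merged where they shared at least 1 bp, and every merged region on chromosome 19 was kept. This gave 5098 regions of 183194 in the whole series, and 177824 of the latter were autosomal. The chromosome was chosen because it takes a high share of the peaks of the library BM6, so that share is described below and was not tested. The deposited lists give each peak a position on mm10 and a score from the peak caller, with no read counts, so the depth behind a peak is unknown. A score depends on depth and was used only as a percentile among the autosomal peaks of its own library, where 100 marks the highest score. Such a rank also shifts with the length of a library's list, so the ranks of single regions given below describe each list and were not tested.

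The cells were cultures derived from mouse mammary tumors driven by the PyMT oncogene, either WT or Lats1-CKO, the latter lacking the Hippo pathway kinase LATS1. They were sorted on the surface proteins EpCAM and CD49f and expanded briefly, then profiled with Tn5 transposase. WT luminal cells (EpCAM-high; CD49f-high) gave the libraries BM1 and BM5. WT basal cells (EpCAM-low; CD49f-high) gave BM2 and BM6. The Lats1-CKO cultures gave BM3 and BM7 from the luminal gate and BM4 and BM8 from the basal gate. All groups carry PyMT and the strain label FBV/N. The promoter that drives Cre in the Lats1-CKO cells is not given in the sources used here, and neither is the age of the animals that gave the cultures. The study calls the libraries of a group biological replicates, and the sources used here do not say whether they came from separate cultures, so a p-value here measures the spread between these libraries only.

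Accessible regions fall into promoters, which tend to be open in most cell types, and distal elements, which differ more between cell types. Chromosome 19 carries a gene-dense segment near its centromeric end, with genes for lipid synthesis, transcription factors and abundant RNAs. It also carries tandem clusters of olfactory receptor, Ms4a, Ifit and Cyp2c genes that are used in few tissues. Scd1 and Scd2, which desaturate fatty acids, also lie on it.

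Library BM3 stood apart from the other 7. It had 14429 autosomal peaks, against 50174 to 96571 in the other libraries, and 57.0% of its chromosome 19 peaks lay within 1 kb of a transcription start site (TSS), against 27.3% to 35.1%. The authors discarded a Lats1-CKO luminal replicate for its quality when they combined replicates, and the sources used here do not name it. BM3 was kept here, and values are given without it wherever it mattered. The sorted populations were checked by peaks within 1 kb of a TSS of marker genes. Of 8 luminal markers, BM1, BM5 and BM7 had all 8, BM2 had 8, BM6 and BM4 had 6, BM8 had 5 and BM3 had 4. Of 6 basal markers, every library had 2 to 4, and Trp63 had a peak in none, so promoter peaks of these basal markers did not separate the gates. Among markers of other cell types, Pdgfrb, a fibroblast gene, had a peak in each of the 4 basal libraries and in no luminal library, but Pdgfra, another, had one in every library except BM3 and Col1a1 had one in all basal libraries and in BM1 and BM7. Cd3e, Itgam and Cdh5 had none in any library.

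The 7 regions that carry the comparisons below are shown first, each as the central 200 bases on the plus strand of GRCm38.p6. Capitals mark matches to 4 short motifs searched on both strands: TGANTCA (AP-1), GGAATG (TEAD), CCGGAAG (ETS) and TGTGGT (RUNX). The Cnnm1 region (chr19:43493371-43493570) had the highest score among promoter regions that BM6 shared with at most 1 library. The Pyroxd2 region (chr19:42753027-42753226) exceeded the mean of the other libraries by most in BM6, among promoters with a peak in all 8. The Esrra region (chr19:6920479-6920678) lies in 1 of the windows with most regions found in BM6 alone. The last 4 lead the regions found by genotype or by gate: in all WT and no Lats1-CKO library (an intron of Cemip2, chr19:21819720-21819919), in BM4, BM7 and BM8 and no WT library (an intron of Glis3, chr19:28378100-28378299), in BM1, BM5 and BM7 and no basal library (an intron of Nmrk1, chr19:18639624-18639823), and in all basal and no luminal libraries (an intron of Atrnl1, chr19:58044886-58045085).
Cnnm1: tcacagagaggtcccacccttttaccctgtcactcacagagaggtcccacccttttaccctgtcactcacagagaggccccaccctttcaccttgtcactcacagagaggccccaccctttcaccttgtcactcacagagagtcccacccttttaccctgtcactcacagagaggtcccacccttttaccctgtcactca
Pyroxd2: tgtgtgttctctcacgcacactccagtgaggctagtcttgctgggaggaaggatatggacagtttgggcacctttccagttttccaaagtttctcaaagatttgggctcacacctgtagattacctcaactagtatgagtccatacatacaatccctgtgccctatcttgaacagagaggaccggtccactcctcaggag
Esrra: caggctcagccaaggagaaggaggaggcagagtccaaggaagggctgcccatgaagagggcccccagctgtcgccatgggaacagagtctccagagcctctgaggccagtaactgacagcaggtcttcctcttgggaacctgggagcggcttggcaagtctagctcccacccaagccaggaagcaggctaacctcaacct
Cemip2: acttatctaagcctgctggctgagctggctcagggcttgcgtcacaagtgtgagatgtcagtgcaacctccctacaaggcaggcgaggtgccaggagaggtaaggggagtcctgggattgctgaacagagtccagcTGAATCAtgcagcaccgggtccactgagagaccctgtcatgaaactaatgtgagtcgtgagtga
Glis3: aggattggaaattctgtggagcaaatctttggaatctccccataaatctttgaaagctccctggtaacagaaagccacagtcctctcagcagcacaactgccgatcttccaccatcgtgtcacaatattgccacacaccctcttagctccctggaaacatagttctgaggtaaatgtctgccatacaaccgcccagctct
Nmrk1: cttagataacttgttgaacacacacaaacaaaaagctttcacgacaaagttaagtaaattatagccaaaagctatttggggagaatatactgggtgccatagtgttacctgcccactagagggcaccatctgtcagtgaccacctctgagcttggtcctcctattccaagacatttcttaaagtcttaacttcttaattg
Atrnl1: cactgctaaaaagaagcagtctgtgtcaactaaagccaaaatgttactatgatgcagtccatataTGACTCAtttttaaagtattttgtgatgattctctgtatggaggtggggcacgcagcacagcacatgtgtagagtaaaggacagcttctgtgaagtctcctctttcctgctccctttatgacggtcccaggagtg

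AP-1 motifs appear in the Cemip2 and Atrnl1 sequences, and the other 5 hold none of the 4 motifs in these windows. The Cnnm1 sequence is a tandem repeat: 86% of its bases equal the base 33 positions further on, against 30.9% to 35.4% at the best spacing of 10 to 60 bases in the other 6. Over all chromosome 19 regions, 24.7% held the AP-1 motif in their central 200 bp, against 26.1% of other autosomal regions. The TEAD motif was in 15.3% against 15.8%, the ETS motif in 2.59% against 2.16%, and the RUNX motif in 21.2% against 21.7%. Chromosome 19 regions had a median width of 158 bp and a median GC content of 50%, and those on the other autosomes had 154 bp and 49.5%. Promoter regions made up 22.0% of the former and 18.9% of the latter.

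Each library placed 2.83% to 3.67% of its autosomal peaks on chromosome 19. BM3 had the highest share, with 530 peaks or 3.67%. BM6 came second with 1788 peaks or 3.56%. BM4 followed at 3.28% with 2755 peaks. The other 5 libraries lay close together, at 2.84% in BM1, 2.94% in BM5, 2.83% in BM2, 2.94% in BM7 and 2.91% in BM8. BM6 thus exceeded BM2, the other WT basal library, 1.26-fold, although it had fewer chromosome 19 peaks than the 1937 of BM2. The share of BM6 was 1.16 times the mean of the other 7 (3.06% ± 0.31, SD) and 1.21 times that of the 6 without BM3 (2.96% ± 0.16, SD). In both forms that ratio was the highest of the 19 autosomes, followed by that of chromosome 4 (1.15 and 1.13).

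BM6 stood further out when only the top 10000 peaks by score were taken from every library. It then had 468 peaks on chromosome 19, or 4.68%, against 2.69% to 3.89% in the other 7. BM4 and BM3 came next with 3.89% and 3.87%, and BM2 was lowest with 2.69%. The ratio of BM6 to the mean of the other 7 was 1.43, again the highest of the autosomes, and that of chromosome 4 was 1.26. Of these 468 peaks 52.6% lay at promoters, and on the other autosomes the share in BM6 was 54.2%.

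**Figure D1:**
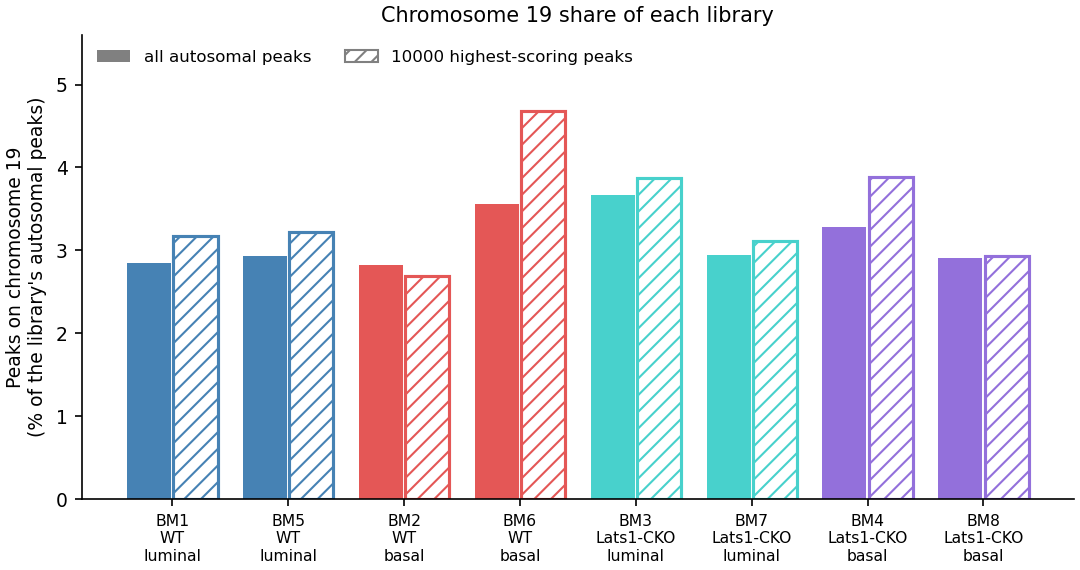
Bars give the percentage of each library's autosomal peaks that lie on chromosome 19 (y axis), for all peaks (solid) and for the 10000 highest-scoring peaks (hatched), with colors for the 4 groups. BM3 (3.67%) and BM6 (3.56%) lead among all peaks, and BM6 alone reaches 4.68% among the highest-scoring peaks.

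The excess of BM6 was spread along the chromosome, and the gene-dense segment held the largest number of its peaks. Cut into 13 bins of 5 Mb, the last of them short, BM6 lay above the mean of the other 7 and above BM2 in all 13. Its ratio to the mean ran from 1.01 in bin 4 (15 to 20 Mb) to 1.29 in bin 10 (45 to 50 Mb). At the mean rate of the other 7 libraries, BM6 would have had 1535 peaks on the chromosome, so 253 of its 1788 peaks were in excess. Bin 2 (5 to 10 Mb), with 160 protein-coding genes the densest, held 60.3 of these, or 23.8%. Its share of BM6 peaks was 0.582%, with 292 peaks. There BM2 had 0.410%, BM1 0.433%, BM5 0.401%, BM4 0.437%, BM7 0.418% and BM8 0.420%. Only BM3 exceeded BM6 in bin 2, with 0.714%. Bin 10 followed with an excess of 37.6 peaks, where BM6 had 0.331%, above all 7 others (0.225% to 0.293%). Bins 7, 9, 3, 12 and 8 each added 21.4 to 26.2 peaks, and bins 4, 6 and 11 at most 3.99. Leaving out BM3 raised the excess in its strong bins: to 81.3 in bin 2, 19.4 in bin 1, 7.89 in bin 11, 6.02 in bin 6 and 3.37 in bin 4. Bin 2 then also had the highest ratio (1.39), followed by bin 10 (1.29).

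BM6 had the highest share of the 8 libraries in 6 of the 13 bins (3, 7, 8, 10, 12 and 13). Over all autosomes it led 8.58% of 501 bins. BM3 led another 6 bins (1, 2, 4, 5, 9 and 11) and BM4 led bin 6. Without BM3, BM6 led 10 of the 13 bins, against 17.6% of all autosomal bins. Among the 10000 highest-scoring peaks BM6 led 8 of the 13 bins, against 9.2% of autosomal bins, and tied with BM2 in bin 7. Its ratio to the mean of the other 7 was then largest in bin 1 (1.73, 44 peaks against 14 to 29) and bin 9 (1.66, 61 peaks against 26 to 44), and smallest in bin 4 (1.07, 25 peaks against 16 to 26). These are the data used to choose the chromosome, so the leads are a description.

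Across the 13 bins, the ratio of BM6 to the other 7 went with the number of protein-coding genes at a Pearson r of 0.46 and a Spearman rho of 0.47. With the percentage of promoter regions in the bin the values were 0.36 and 0.51. Without BM3 they were 0.65 and 0.54 for genes and 0.70 and 0.74 for promoter regions. The bins share the same 8 libraries and are not independent, so these values describe the chromosome only. Of the 253 peaks in excess, 89.5 lay within 1 kb of a TSS and 163 were distal. Without BM3, whose peaks were mostly at promoters, the split was 175 at promoters and 129 distal of 304. Chromosome 19 took 3.78% of the promoter peaks of BM6, the highest of the 8 libraries (3.27% to 3.74% in the others). It took 3.46% of its distal peaks, below BM3 (3.59%) and above the other 6 (2.62% to 3.18%).

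BM6 peaks on chromosome 19 also had higher scores. Their median percentile was 56.7, against 49.9 for its peaks on the other autosomes, a difference of 6.72. The same difference was 5.83 in BM5, 3.57 in BM4, 1.79 in BM7, 1.53 in BM8, 1.49 in BM1, 1.11 in BM3 and 0 in BM2. BM6 and BM5, a basal and a luminal WT library, therefore lay above the rest, and BM2 was lowest. In BM5 the median on the other autosomes was the lowest of the 8 libraries (47.9). Its 53.7 on chromosome 19 was below the 53.8 of BM4. Peaks of equal score share a percentile, and both medians of BM2 were 49.9. Within BM6 the median percentile was highest in bin 1 (67.0), bin 3 (62.1), bin 13 (61.9) and bin 2 (60.3). It was below that of its other autosomes only in bins 4 (49.0), 10 (48.2) and 12 (48.7). Bin 10 had a high ratio of peaks and the lowest median score of BM6, while bin 2 was high in both. The high median in bin 2 was not particular to BM6, since BM4 (64.1), BM8 (62.4) and BM5 (60.5) were above it there. In bin 13 BM8 was above BM6 (65.2), and in bins 1 and 3 BM6 had the highest median of the libraries.

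Scores were then compared within the same regions. In 769 chromosome 19 regions and 21705 others, all 7 libraries apart from BM3 had a peak, and each library's percentile was set against the mean of the other 6. BM6 lay 2.13 percentile points above the others on chromosome 19 (median), and 3.08 below them elsewhere (-3.08). The difference of 5.21 was the largest of the 7 libraries. BM6 was above the others in 62.0% of the chromosome 19 regions and in 38.3% of those elsewhere. Of its chromosomes, only chromosome 19 and chromosome 4 (0.25) had a median above 0, and the lowest was -6.80 on chromosome 3. BM2 went the other way, with -2.80 on chromosome 19 and 0.33 elsewhere. The medians on chromosome 19 and elsewhere were 0.40 and 2.17 in BM1, -2.83 and -2.53 in BM5, 3.77 and 2.84 in BM4, 4.4 and 5.29 in BM7, and 3.38 and 5.36 in BM8.

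**Figure D2:**
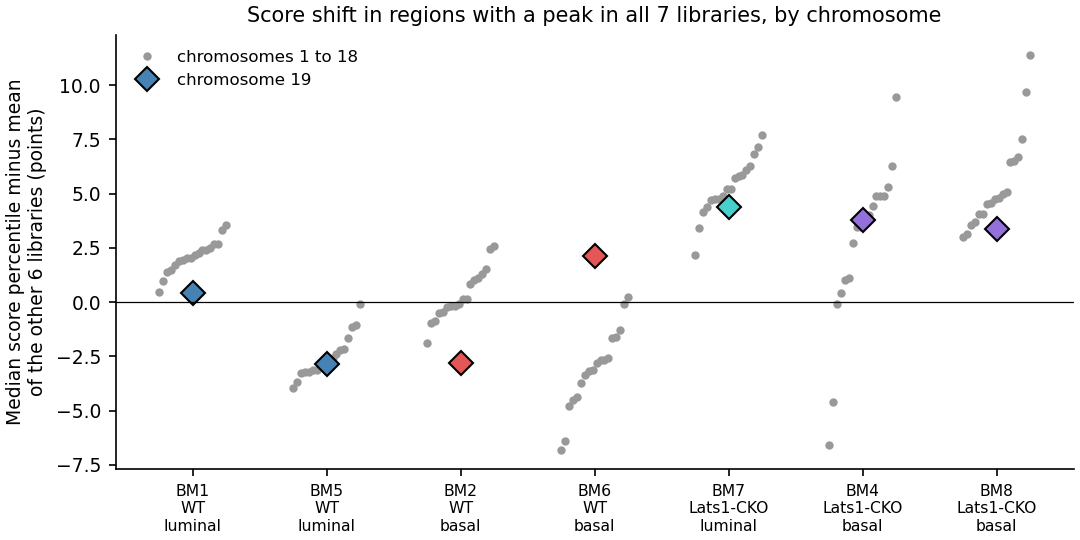
For each library, points give the median score percentile minus the mean of the other 6 libraries (y axis, percentile points) over regions with a peak in all 7 libraries, for chromosomes 1 to 18 (grey) and 19 (diamond). The diamond of BM6 (2.13) lies above all its grey points, and those of BM1 (0.40) and BM2 (-2.80) lie below all of their own.

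Other libraries had larger shifts on other chromosomes. The highest in BM4 was 9.45 on chromosome 15 and the lowest -6.59 on chromosome 4, and BM8 reached 11.4 on chromosome 12. Along chromosome 19, the shift of BM6 was above 0 in 12 of the 13 bins, from -0.30 in bin 6 to 5.10 in bin 10, against 15.2% of 414 autosomal bins with at least 20 such regions. The shift was 2.61 at 374 promoter regions, against -1.45 at promoters elsewhere, and 1.52 at 395 distal regions, against -5.20. BM2 had its lowest shifts in bins 1 (-7.72) and 2 (-8.41), where BM6 had 2.62 and 1.84. Across the bins, the ratio of BM6 peaks and this shift went together only weakly (Pearson r 0.20, Spearman rho 0.088 over 13 bins, and 0.28 and 0.24 without BM3). Bin 10 nevertheless had the largest shift and, against all other libraries, the largest ratio (1.29).

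**Figure D3:**
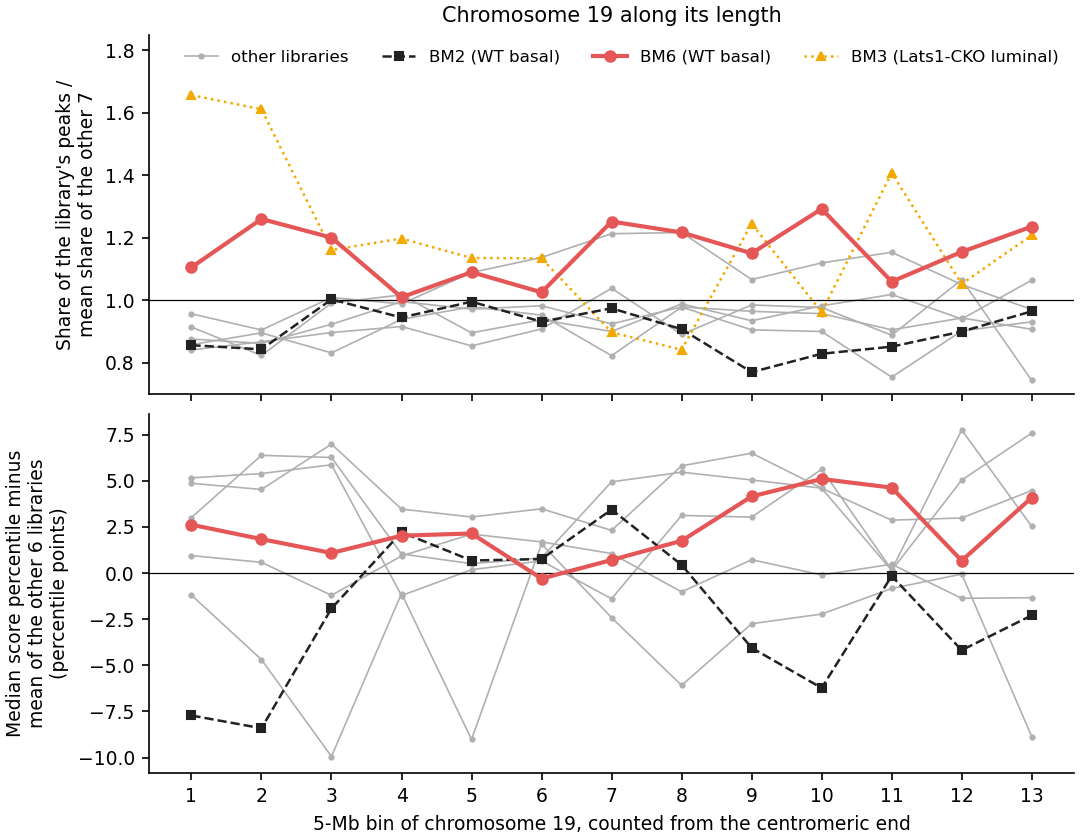
The upper panel gives each library's share of its autosomal peaks in a 5-Mb bin of chromosome 19, divided by the mean share of the other 7, and the lower panel the median score shift against the other 6 libraries, both by bin number. BM6 (red) lies above 1 in all 13 bins and above 0 in 12 of 13, while BM3 (yellow, upper panel only) is highest in bins 1 and 2 and BM2 is dashed.

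Promoters that BM6 shared with few libraries were searched first for genes behind the excess. Of all chromosome 19 regions in BM6 alone, 14.3% lay within 1 kb of any TSS, against 12.2% of those on the other autosomes. On chromosome 19, 24 regions within 1 kb of a protein-coding TSS had a peak in BM6 and in at most 1 other library. Of these, 15 were in BM6 alone. No share over all autosomes is given beside the 24, so they describe this chromosome only. The highest percentile was 63.7, at Cnnm1, a member of the cyclin M family of metal transport mediators. The region, in BM6 alone, is the tandem repeat shown above. It lies in an intron, 2 bp from an annotated TSS inside the gene (chr19:43440436-43497210, plus strand) and far from the start of the gene. No library had any other peak within 1 kb of a Cnnm1 TSS. Peli3, a ubiquitin ligase of innate immune signaling, had 57.3 in BM6 and 29.2 in BM4. Fibp, which encodes a protein that binds acidic fibroblast growth factor, had 48.4 in BM6 and 15.2 in BM4. Fam89b had 47.0 in BM6 and 21.2 in BM2. The alarmin Il33 had 30.6 in BM6 and 25.2 in BM1. Dnmbp (46.6), an exchange factor for Cdc42, and Npas4 (42.7), an activity-dependent transcription factor of neurons, had such a region in BM6 alone. Ms4a6b was higher in the other library, with 47.0 in BM6 and 64.4 in BM7, and Kank1, a cytoskeletal adaptor, was level at 34.6 in BM6 and 33.8 in BM8. Some of these genes had a stronger promoter peak elsewhere, at 87.9 in BM6 for Kank1 and 67.6 for Dnmbp, where all 8 libraries had one, and at 74.2 for Peli3, where every library but BM3 had one. Within 1 kb of any of its TSSs, Fibp had a peak in 6 libraries, and BM7 (54.2) was above BM6. Counted likewise, Fam89b and Il33 had a peak in 3 libraries each, with BM1 (11.9) added at Fam89b and BM4 (16.1) at Il33. Ms4a6b had one in 5.

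Promoters open in every library were compared next. Of 248 chromosome 19 regions within 1 kb of a protein-coding TSS and with a peak in all 8, BM6 lay above the mean of the other 7 in 209, or 84.3%. On the other autosomes this held for 61.5% of 6044 such regions. The medians were 6.51 and 1.56 points. BM3 had low percentiles at many such promoters. Without it, BM6 was above the other 6 in 75.8% of the chromosome 19 promoters (median 2.68) and in 45.7% elsewhere (-0.51). Against BM2 alone BM6 was higher in 81.9% (median 7.03), and elsewhere in 50.9% (0.09).

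Among these, Pyroxd2, which encodes an oxidoreductase, had the largest value in BM6 over the others. Its percentile was 95.2 in BM6 and 59.9 in BM2, 80.9 in BM1, 89.3 in BM5, 12.8 in BM3, 76.8 in BM7, 71.4 in BM4 and 59.6 in BM8. BM6 was the highest of all 8, 30.8 points above the mean of the other 7 and 22.2 without BM3. At Rbm4b, a splicing regulator, BM6 was also highest with 95.9, against 8.2 in BM3 and 68.9 to 91.2 in the other 6. In the merged region BM6 led at Morn4 (95.0), Fam204a (96.3), Mrpl49 (79.6), a mitochondrial ribosomal protein gene, and Aldh18a1 (88.3), which acts in proline synthesis. Within 1 kb of any TSS, however, BM4 and BM8 had a stronger peak at Morn4 (97.3 and 97.2), and BM5 at Aldh18a1 (94.1). At Ssh3, which encodes a slingshot phosphatase, the 81.6 of BM6 was below the 89.5 of BM7. BM6 was likewise not the highest at Ldb1 and Klc2.

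BM6 was not above the mean of the other 7 at 39 of the 248 promoters, and at 60 without BM3. Of these the 5 lowest are named. At Fosl1, which encodes the AP-1 subunit FRA1, the promoter region had 48.0 in BM6, against 67.1 in BM2, 83.9 in BM1, 78 in BM5, 49.6 in BM3, 74.2 in BM7, 69.8 in BM4 and 72.1 in BM8. BM6 was the lowest of the 8 in this region, 22.7 points below the mean of the other 7. Its strongest peak within 1 kb of a Fosl1 TSS was a second one at 58.1, above BM3 and 12.6 points below the mean. It was also lowest at Frat2, a regulator of Wnt signaling (53.2 against 60.4 to 91.9), and at Rorb, a nuclear receptor (74.8 against 81.5 to 98.4). At Cdc42bpg, a kinase that binds Cdc42, BM5 was lower still (17.8 against 25.6 in BM6). At 4430402I18Rik, whose region also covers an exon of Plpp6, BM8 was lower (32.8 against 43.3 in BM6).

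**Figure D4:**
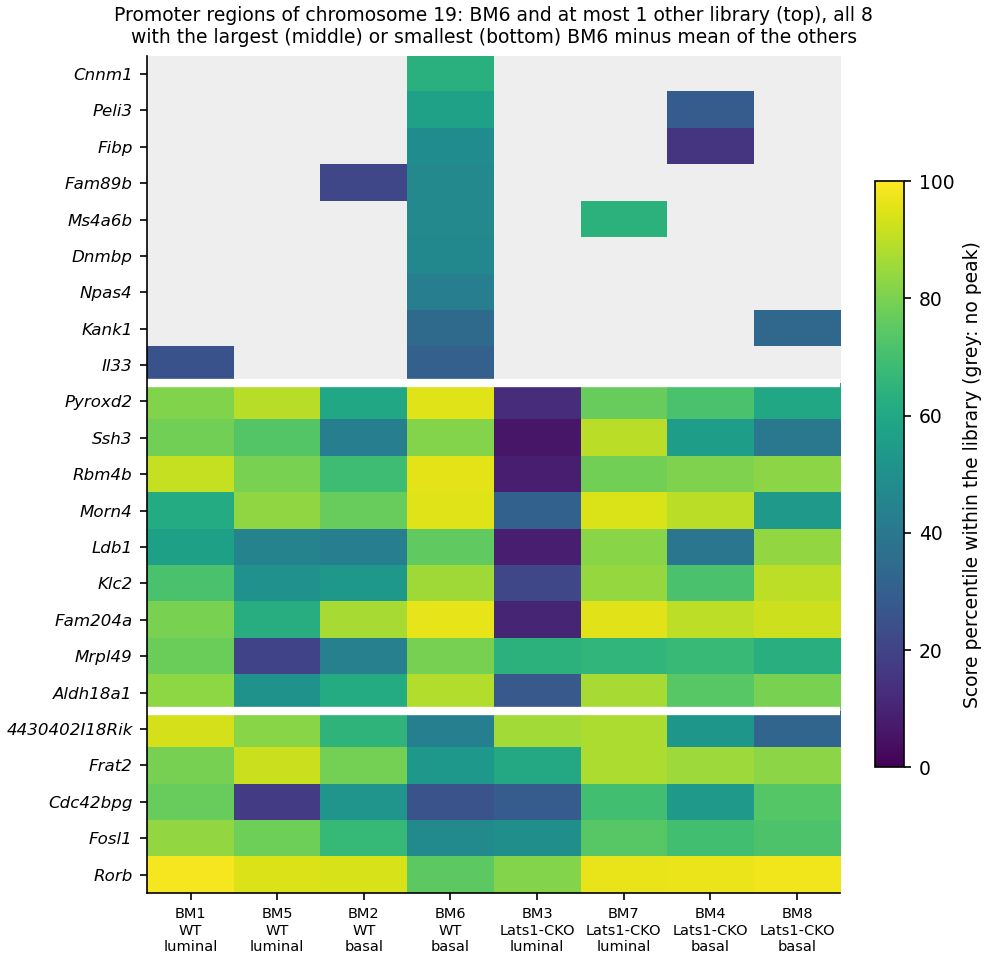
Color gives the score percentile in each library (columns) of promoter regions of chromosome 19 (rows, by gene), and grey marks the absence of a peak. The top 9 have a peak in BM6 and in at most 1 other library, the middle 9 and bottom 5 have peaks in all 8 with the largest and smallest values of BM6 over the mean of the others, and BM3 is low in most of the middle rows.

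The excess was not gathered in any 1 window of 100 kb. BM6 had more peaks than the mean rate of the other 7 predicts in 293 of the 534 windows with a peak. No such counts are given for the other autosomes, so the window counts here describe chromosome 19 only. Regions in BM6 alone lay in 104 windows, with at most 3 in any. The window from 6.9 to 7.0 Mb held 3, near Esrra (percentile 22.5), Bad (16.3) and Ppp1r14b (14.9), among 14 protein-coding genes that include Vegfb, Prdx5 and Plcb3. Esrra encodes an estrogen-related nuclear receptor and Bad a pro-apoptotic BCL2 family member. The window from 19 to 19.1 Mb also held 3, all in introns of Rorb (60.3, 6.3 and 2.2), whose promoter was lower in BM6 than in any other library. Those at 4.9 Mb (Npas4 and Bbs1), 10.1 Mb (between Fads1 and Fads2) and 26.7 Mb (Smarca2) held 2 each. By the number of peaks in excess, a choice made after the values were seen, the window from 9.0 to 9.1 Mb came first. It had 19 peaks in BM6, 12 in BM2, 11 in BM1, 8 in BM5, 4 in BM3, 15 in BM7, 17 in BM4 and 18 in BM8. At the rate of the other 7 libraries 9.67 of the 19 were in excess, and Scgb1a1, a secretoglobin gene, is the only protein-coding gene that starts there. Most of the window lies in the body of Ahnak (chr19:8989284-9076914), which encodes a large scaffold protein. The next was 47.3 to 47.4 Mb, where no gene starts, with an excess of 5.61.

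BM6 alone had a peak in 119 of the 5098 regions, or 2.33%, against 1.57% of all autosomal regions. Of all autosomal regions found in BM6 only, 4.27% lay on chromosome 19, and in the other libraries this share was 2.15% to 3.57%. Regions that 2 to 7 libraries shared also held a BM6 peak more often on chromosome 19. These counts rest on the same peaks that chose the chromosome and are a description. Where 3 libraries had a peak, BM6 was among them in 28.7% of chromosome 19 regions and in 17.9% elsewhere, while BM2 was in 33.7% and 42.9%. BM4 was in 52.8% and 47.3%. Where 7 libraries had a peak, BM6 was among them in 99.0% of chromosome 19 regions and in 98.4% elsewhere. In total 408 regions (8.00%) had a peak in all 8 libraries, and among all autosomal regions 6.0% did.

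Lists of chromosome 19 genes by role were read next, taking for each gene the highest peak within 1 kb of any TSS. All 10 listed tumor suppressors and growth regulators had a peak in all 8 libraries, and BM6 was above the mean of the other libraries, BM3 left out, in 9 (median 3.45). Dusp5, a phosphatase of ERK, had 87.9 in BM6 and 64.9 in BM2, but 89.1 in BM1 and 88.4 in BM7. Of 12 housekeeping and cell division genes all had a peak in every library, and BM6 was above in 9 (median 2.52). Hells, a chromatin remodeler, had 90.6 in BM6 and 68.3 in BM2, but 92.1 in BM1. The mitotic kinesin Kif11 had 71.7 in BM6 against 82.6 in BM2 and was lowest in BM6. The abundant non-coding RNAs Malat1 (61.2 against 11.8 in BM2) and Neat1 (77.8 against 32.2) were both above BM2. BM6 was the highest library at neither. At Malat1 BM1 (74.5), BM4 (68.3) and BM7 (65.3) were above it, and at Neat1 BM5 and BM7 were slightly above it.

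Of 12 lipid genes 6 had a promoter peak in all 8 libraries, 5 in some, and Scd3 in none. BM6 was above the others in 6 of the 9 genes that could be compared (median 1.09). Fads2, a desaturase of polyunsaturated fatty acids, had 94.5 in BM6, 84.1 in BM2, 81.6 in BM1, 89.0 in BM5, 55.4 in BM3, 90.8 in BM7, 95.6 in BM4 and 90.8 in BM8. Scd1 had a peak in every library but BM3, from 81.0 to 92.7. Of 12 transcription factors and cofactors 10 had a peak in all 8, and BM6 was above in 8 (median 1.65), with Lcor, a nuclear receptor corepressor, at 80.4 against 41.1 in BM2. Esrra had 98.8 in BM6 and 91.5 in BM2 at its main promoter peak. Of 13 genes of the cytoskeleton, adhesion and basement membrane 5 had a peak in all 8, and BM6 was above in 7 of 9 (median 2.11). Ankrd1, a YAP target, had 76.3 in BM6 and 77.4 in BM2, 84.1 in BM1, 83.9 in BM5, none in BM3, 55.6 in BM7, 81.9 in BM4 and 41.3 in BM8. Over the 248 promoters the same comparison gave 75.8% above and a median of 2.68, and the lists were not tested against it. Of the genes for smooth muscle actin and collagen XVII, Acta2 had a peak in BM4 alone (28.1), and Col17a1 in BM7 (29.0) and BM4 (10.2). Among 5 retinoid and xenobiotic genes, BM6 was above the others in 2 of 3. Aldh1a1, a retinaldehyde dehydrogenase, had 32.1 in BM6, 92.7 in BM2, 54.7 in BM1, 28.2 in BM5 and 68.0 in BM7, and no peak in BM3, BM4 and BM8. Gstp1 had 83.4 in BM6, 59.9 in BM2 and 86.7 in BM4, values that are uncertain because Gstp2 is nearly identical in sequence.

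**Figure D5:**
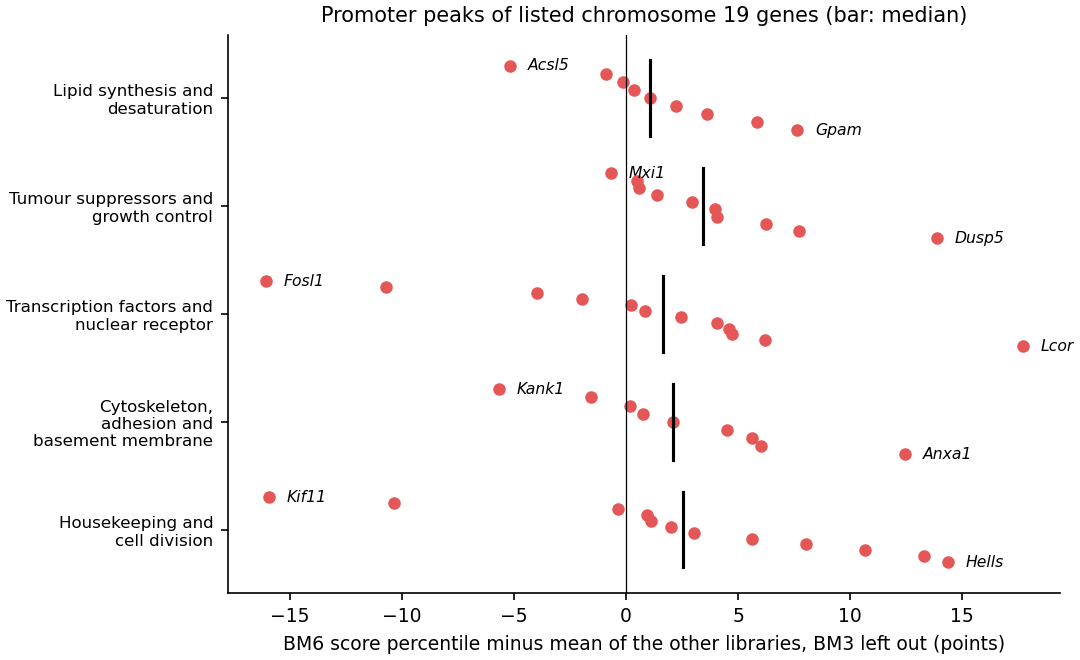
Each point is a listed chromosome 19 gene, placed by its promoter score percentile in BM6 minus the mean of the other libraries without BM3 (x axis, percentile points), and vertical bars mark the medians of the 5 lists (1.09 to 3.45). Most points lie to the right of 0, with Fosl1 and Kif11 farthest to the left and Lcor farthest to the right.

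The tandem gene clusters stayed mostly without promoter peaks, in BM6 as in the others. Of 66 olfactory receptor genes 63 had none in any library, and none had one in BM6. Yet the 2095 kb between Olfr1417 and Olfr1505 held 83 regions, 12 of them in all 8 libraries, and BM6 had a peak in 38 of the 83, where BM3 had 14 and the other 6 libraries 39 to 46. No Cyp2c gene of 15 had a promoter peak, and 13 of 19 Ms4a genes had none. In the Ifit cluster of interferon-induced genes, Ifit2 had 74.0 in BM6, 89.3 in BM2, 71.3 in BM1, 89.5 in BM5, 97.1 in BM4 and 14.5 in BM8, with none in BM3 and BM7. Members of these clusters resemble each other in sequence, and the authors kept only reads with a unique alignment, so the part of that step in the absent peaks was not tested. Of the 8 developmental genes Pax2, Lbx1, Tlx1, Nkx2-3 and Fgf8 had no promoter peak in any library.

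The comparisons the design implies, Lats1-CKO against WT and basal against luminal, were made on 3 measures that the choice of chromosome did not use by genotype or gate. Each used 4 libraries against 4 and a two-sided exact permutation test, whose smallest p is 0.029. The median score percentile relative to the other autosomes was 2.00 ± 1.08 (SD, n = 4) in Lats1-CKO and 3.51 ± 3.27 in WT libraries, and the difference of -1.51 had an exact p of 0.40. In basal libraries it was 2.96 ± 2.90 and in luminal libraries 2.56 ± 2.20, with an exact p of 0.83. Promoters took 35.3% ± 14.5 of the chromosome 19 peaks in Lats1-CKO and 33.7% ± 1.6 in WT libraries (exact p = 1). The share was 30.9% ± 3.9 in basal and 38.1% ± 12.8 in luminal libraries (exact p = 0.43). Adjusted over the 6 tests, every p was 1, and no difference exceeded the spread between libraries.

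BM3 decided the direction of the first promoter difference. Without it, the 3 Lats1-CKO libraries had 27.3%, 27.9% and 29.0% and the 4 WT libraries 31.5% to 35.1%, so the groups did not overlap. The difference was then -5.63 percentage points with an exact p of 0.057, the smallest that 3 libraries against 4 can give. On the other autosomes the same 3 libraries had 24.1% to 25.6% and the WT libraries 27.1% to 33.0%, so the order was not particular to chromosome 19. These 3 libraries had the longest lists, with 84055 to 96571 autosomal peaks against 50174 to 70722 in WT. With every list cut to 10000 peaks by score, chromosome 19 promoter shares were 46.5% in BM4, 54.2% in BM7 and 50.2% in BM8. The WT libraries then had 44.2% to 60.9%, so at equal length the groups overlapped. The part of list length in the order was not tested. The first 15 Mb held 29.1% ± 3.9 of the chromosome 19 peaks in Lats1-CKO and 28.7% ± 1.0 in WT libraries (exact p = 1), and 28.2% ± 1.6 in basal and 29.6% ± 3.5 in luminal libraries (exact p = 0.63). BM3 was highest there with 34.9%, and BM6 second with 30.0%. Without BM3, the remaining Lats1-CKO libraries (26.3% to 27.5%) lay below all WT libraries (27.7% to 30.0%), by 1.60 points with an exact p of 0.057. These were again the libraries with the longest lists. With the 10000 highest-scoring peaks of every library, BM3 included, Lats1-CKO lay 4.17 points above WT (exact p = 0.23).

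Few regions of chromosome 19 followed genotype throughout. Only 4, or 0.0785%, had a peak in all WT and no Lats1-CKO library, near the 0.0624% of all autosomal regions that did. They lay in an intron of Cemip2, upstream of the exchange factor gene Dock8, between genes 29759 bp from Atrnl1, and 114 bp from a TSS of Dnmbp. At Dock8 the percentile was 86.5 in BM5 and 74.8 in BM2, and 21 in BM1 and 13.1 in BM6. All 4 were weak in BM6, at 10.2 to 17.8. With BM3 left out of the definition because of its few peaks, 90 regions had a peak in BM4, BM7 and BM8 and in no WT library, or 1.77%, against 1.5% of all autosomal regions. This definition asks for a peak in fewer libraries, and those had the longest lists, so the 90 cannot be set against the 4. The first of the 90 was an intron of Glis3, a zinc finger transcription factor, with 94.7 in BM8, 85.4 in BM4 and 70.2 in BM7. A region 35734 bp from Fads2 had 87.9 in BM8, 87.4 in BM7 and 67.8 in BM4. The others named by the same rule lay in an intron of 2410152P15Rik, near Sh3pxd2a, an adaptor of invadopodia, and at the TSS of Fbxl15 (53.4 in BM7, 60.3 in BM4 and 57.9 in BM8).

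Gates gave as few. Just 8 regions, or 0.157%, had a peak in BM1, BM5 and BM7 and in no basal library, where 0.181% of autosomal regions did. An intron of Nmrk1, which acts in NAD synthesis, had 48.8 in BM1, 69.5 in BM5 and 49.8 in BM7. Gsto2, a glutathione transferase, and Slc1a1, a glutamate transporter, followed. Conversely 13 regions had a peak in all 4 basal libraries and in no luminal one, or 0.26%, where 0.0911% of autosomal regions did. The leading one, in an intron of Atrnl1, had 51.7 in BM2, 51.4 in BM6, 48.7 in BM4 and 49.8 in BM8. One in an intron of Pank1 had 59.2, 79.3, 86.0 and 29.1 in the same order, and another near Emx2 had 15, 64.0, 65.6 and 29.1. Of the 4 fibroblast markers, BM2 and BM4 had a promoter peak at 4, BM6 and BM8 at 3, BM1 and BM7 at 2, BM5 at 1 and BM3 at 0. Pdgfrb alone had the same pattern as these regions, and its part in them was not tested.

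Finally, each bin held a region that was near the top in all libraries. They included the TSSs of Pcx, the pyruvate carboxylase gene (93.5 to 98.6), Cox8a of the respiratory chain (96.4 to 99.5) and the lysosomal lipase gene Lipa (98.1 to 100.0). A distal region in an intron of the magnesium channel gene Trpm6 reached 99.6 or more in every library. At these summits BM6 differed from the mean of the other 7 by -1.5 to 4.8 points.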

How the data were processed

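The 8 ATAC-seq libraries came from mouse cells, 2 for each of the 4 sorted groups. Per the paper's methods, adapters were removed with cutadapt, unique Bowtie alignments to mm10 were kept, and the reads were cleared of mitochondrial reads, duplicates and long fragments. Peaks were called with MACS2 in each library and those on the ENCODE blacklist were removed. The submitters' processing notes list Bowtie 1.0.0, Picard 2.3.0 and MACS2 2.1.1.20160309. The authors deposited 1 peak list per library with a score for each peak, at least 13 in all lists. It was taken from its values to be that of MACS2, is not normalized between libraries and gives no read counts, so no interval for counting error could be given.

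Peaks were merged where they shared 1 bp or more. Scores were turned into percentiles within the autosomal peaks of a library. TSSs came from GENCODE M21 and sequences from GRCm38.p6, RefSeq's genome of the same build as mm10. Motifs were searched in the central 200 bp. A peak or region within 1 kb of a TSS was called a promoter. Tests were run with scipy 1.17.1 under python 3.11.15, sequences read with pysam 0.24.0, tables handled with pandas 2.3.3 and numpy 2.4.6 and plots drawn with matplotlib 3.10.9. The steps were tested on simulated data.

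The chromosome, the gene lists and the rules for naming genes were chosen with earlier results of these data known. Named promoters were the 10 of highest BM6 percentile among those in BM6 and at most 1 other library, and the 10 largest and 5 smallest values of BM6 minus the mean of the other 7 among those in all 8. Also named were the 5 windows of 100 kb with most regions in BM6 alone, the 5 regions of highest smallest percentile in each pattern of genotype or gate, and the strongest shared region of each bin. Windows by excess and the comparison with BM2 alone were added after the data were seen. Some regions these rules select are not reported here. Differences between 4 and 4 libraries were tested by two-sided exact permutation tests with Benjamini-Hochberg adjustment. Alternatives were leaving out 1 library at a time, the top 10000 peaks by score, peaks above the library's median score, bases in place of peaks, promoter or distal peaks, all chromosomes, bins of 2.5 and 10 Mb, 5 kb in place of 1 kb, the first 10 Mb in place of 15 Mb, and a peak covering 50% of a region.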

Additional observations from a re-analysis of the deposited data

Results flagged for a closer look

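A library far from the other 3 of its genotype or gate was looked for in 3 measures and 4 groups of 4 libraries, 12 in all, which overlap. The chromosome 19 shares were left out, since they chose the chromosome. By Dixon's criterion 4 were past the 95% limit for the gap divided by the range, and chance gives about 1 in 20 groups. BM3 was the far library in 3 cases. Its promoter share of chromosome 19 peaks was 57.0%, with 27.3% to 29.0% in the other Lats1-CKO libraries. Its share in the first 15 Mb was 34.9%, far from the other Lats1-CKO (26.3% to 27.5%) and the other luminal libraries (27.5% to 28.2%). BM5 was far from the other luminal libraries in the median score percentile of chromosome 19 relative to the other autosomes (5.83, the others at 1.11 to 1.79). Within regions shared by the 7 libraries without BM3, the median shift of BM5 on chromosome 19 minus that elsewhere was -0.30.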

How the results depend on the processing

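No difference between genotypes or gates passed the threshold with all 8 libraries. With a library left out none could, since the smallest p of 3 against 4 is 0.057, so those p-values say nothing of stability. The ratio of BM6 to the other libraries stayed above 1 under every setting, from 1.15 to 1.21 with a library left out, and rose to 1.43 among the 10000 highest-scoring peaks. BM6 led 29.2% of bins of 2.5 Mb, and 46.2% to 76.9% of bins with a library left out, the highest without BM3. The difference of Lats1-CKO from WT in the share of the first 15 Mb turned to -0.0281 with peaks above the median score. That of basal from luminal turned to 0.843 with the 10000 highest-scoring peaks. With a library left out, these ranged from -1.60 to 1.27 and from -2.12 to 0.33, the promoter share of Lats1-CKO minus WT from -5.63 to 4.28, and the median percentile of basal minus luminal from -0.86 to 1.49. Leaving out BM3 turned all 4, and leaving out BM6 also turned the last. Regions in all WT and no Lats1-CKO library fell to 1 with either choice of higher-scoring peaks and numbered 4 to 16 with a library left out (9 without BM5, 11 without BM4, 13 without BM7, 16 without BM6). Regions in BM4, BM7 and BM8 and no WT library fell to 3 with the 10000 highest and to 45 above the median, and numbered 90 to 279 (136 without BM6, 154 without BM8, 197 without BM7, 279 without BM4). Those in BM6 alone fell to 70 and 41 and numbered 120 to 149. Fewer peaks or libraries enter by construction. No paired analysis was possible because the labels give no replicate numbers that link libraries across groups.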

Other observations

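Pairs of libraries were compared by the Jaccard index over chromosome 19 regions, the regions with a peak in both divided by those with a peak in either. The highest values were for a luminal and a basal library of the same genotype, BM1 with BM2 (0.598, and 0.584 on the other autosomes) and BM7 with BM8 (0.536 and 0.505). BM6 was closer to BM1 (0.536) than to BM2 (0.517), the other WT basal library. The pair of BM6 and BM8 ranked 11 of 28 on chromosome 19 (0.450) and 18 on the other autosomes (0.377). All 7 pairs of BM3 were the lowest, at 0.163 to 0.265. The index cannot exceed the smaller number of regions divided by the larger. BM3 had a peak in 509 regions and the others in 1631 to 2763, so its values had a low ceiling. Its likeness to the other libraries cannot be read from them.

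Regions that only 1 library had were also read for tandem repeats, here a window of 200 bp with at least 60% of its bases equal to the base 10 to 60 positions on at the best spacing, a choice made after the Cnnm1 sequence was seen. On chromosome 19 these were 4 of the 119 regions of BM6 alone (3.36%) and 16 of the 285 of BM5 alone (5.61%). In all chromosome 19 regions the share was 0.785%, and none of the 408 regions in all 8 libraries was of this kind. On the other autosomes the shares were 3.38% for BM6 alone, 5.15% for BM5 alone and 10.2% for BM3 alone, against 0.772% in all.

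Of the regions in BM6 alone on chromosome 19, 8.40% held the AP-1 motif, and of those in BM2 alone 32.7% did. On the other autosomes the shares were 8.11% and 40.3%. Those in BM4 alone (31.4%) and BM8 alone (22.3%) were also above BM6, while the 21 regions of BM3 alone held none on chromosome 19 and 3.70% elsewhere.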
